A study of Mus musculus with 6 samples.

Results

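The lysyl oxidase family was followed in mammary tumor cells sorted by surface markers into metastasis-initiating cells and their counterparts. The family has 5 genes in the mouse, Lox, Loxl1, Loxl2, Loxl3 and Loxl4, and all 5 were among the 22310 genes of the deposited table. They were taken by name, and Lox was chosen by its higher values in the MIC than in the non-MIC libraries of these same data, so that the contrast of Lox between the populations is given as a description with no test.

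Lysyl oxidases are copper-dependent amine oxidases that are secreted into the matrix. They oxidise the side chains of lysines and hydroxylysines in collagens and elastin to aldehydes, which then condense into the covalent cross-links that give fibrils their tensile strength. LOX and LOXL1 carry a propeptide that is removed by BMP1 and related proteinases, whereas LOXL2, LOXL3 and LOXL4 carry scavenger receptor domains in front of the catalytic domain. In the mammary gland the family is best known for stiffening the stroma of tumors, and LOX is also known as a gene that responds to low oxygen.

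Cells came from MMTV-PyMT mice, in which the mouse mammary tumor virus promoter drives the polyoma middle T oncoprotein in mammary epithelium, in the FVB/N background at about 12 to 18 weeks of age, and the genotype label is WT for every library. After a night in culture in DMEM/F12 with 2% serum, 10 µg/ml insulin and 20 ng/ml hEGF, cells were sorted as Lin-CD24+CD90+ (metastasis-initiating cells, MICs) or Lin-CD24+CD90- (non-MICs). There were 3 libraries of each population, numbered 1 to 3 in both. The paper's figure legend counts them as 3 independent experiments or tumors. Neither the labels nor the methods say whether a number stands for 1 animal or a pool, so that p-values measure the spread between these libraries. A same-numbered MIC and non-MIC library is called a pair below. Transcripts were measured after a night in culture, and neither enzyme activity nor cross-links were.

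Each library held between 31467281 and 51759769 reads, scaled to a total of 35000000, and a value below is a gene's reads on that scale. Thy1, the gene of CD90, stood at 1509, 301 and 755 in the MIC libraries and at 16.9, 21.1 and 12.6 in the non-MIC libraries, as the sort sets it. The members rested on 47 reads (Loxl1 in non-MIC library 3) to 2068 reads (Loxl4 in non-MIC library 2). Cd24a, the gene of CD24, ranged from 11309 to 19406 in MICs and from 14009 to 18754 in non-MICs. Among the markers of the labelled tissue, Krt8, a keratin of luminal mammary cells, was at 81339 or more in all 6 libraries.

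The catalytic center that makes these 5 genes a family is shown by 10 codons of coding sequence, taken from GENCODE vM21 transcripts on GRCm38, with the codons of 3 copper-binding histidines in capitals. They are shown because the results below turn on telling these related genes apart: Loxl1 stands for the branch it shares with Lox, and Loxl2 and Loxl4, which moved in opposite directions on average, are the closest pair of the 4 printed.
Loxl1: gagtggcatagctgtCACcaaCATtacCAC
Loxl2: atttggcacgactgcCACaggCACtacCAC
Loxl3: gtgtggcatgagtgtCATgggCATtacCAC
Loxl4: atttggcaccagtgcCACaggCACtacCAC
Loxl2 and Loxl4 shared 28 of the 30 bases, Loxl1 and Loxl4 18, and Lox, whose stretch is not printed, shared 29 with Loxl1. In every member an intron divides the stretch after its base 20. The Loxl1 stretch lies in exons 3 (chr9:58294359-58294378) and 4 (chr9:58293720-58293729) on the minus strand, and that of Loxl2 in exons 10 (chr14:69682319-69682338) and 11 (chr14:69689028-69689037) on the plus strand. The Loxl3 stretch lies in exons 10 (chr6:83049998-83050017) and 11 (chr6:83050116-83050125) on the plus strand, and that of Loxl4 in exons 11 (chr19:42599877-42599896) and 12 (chr19:42598807-42598816) on the minus strand. The longest run of bases shared exactly by transcripts of any 2 members was 32, between Lox and Loxl1, against reads of 75 bases, so no read lying wholly in a transcript matches 2 members without a mismatch.

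The genes themselves lie apart. Lox spans chr18:52516067-52529867 on the minus strand, Loxl1 chr9:58287738-58313186 on the minus strand, Loxl2 chr14:69609068-69695834 on the plus strand, Loxl3 chr6:83034173-83052562 on the plus strand and Loxl4 chr19:42593982-42612813 on the minus strand. Loxl3 overlaps Htra2 on the opposite strand, which had values between 1364 and 1631, and Lox overlaps the antisense gene AC161119.1, with values between 3.18 and 44.5. The libraries were made by a stranded method, but whether the counting used the strand is not stated, so the values of Loxl3 and, to the size of its antisense partner, of Lox are uncertain. Loxl2 also overlaps antisense genes that were not used here.

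Lox, the founding member and the main cross-linker of fibrillar collagen, was higher in MICs than in non-MICs within each pair. Its values were 1217, 380.4 and 1204 in MIC libraries 1, 2 and 3 and 226.5, 187 and 476 in the non-MIC libraries of the same numbers. The MIC library of pair 2 lay below the non-MIC library of pair 3, so the populations overlapped although each pair had the same direction. MIC exceeded non-MIC 5.37-fold in pair 1, 2.03-fold in pair 2 and 2.53-fold in pair 3. On the log2(value + 1) scale the level was 9.69 ± 0.96 for the 3 MIC libraries, as mean and SD, and 8.09 ± 0.71 for the 3 non-MIC libraries, which makes a difference of 1.59. Without MIC library 1 the difference was 1.31.

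**Figure D1:**
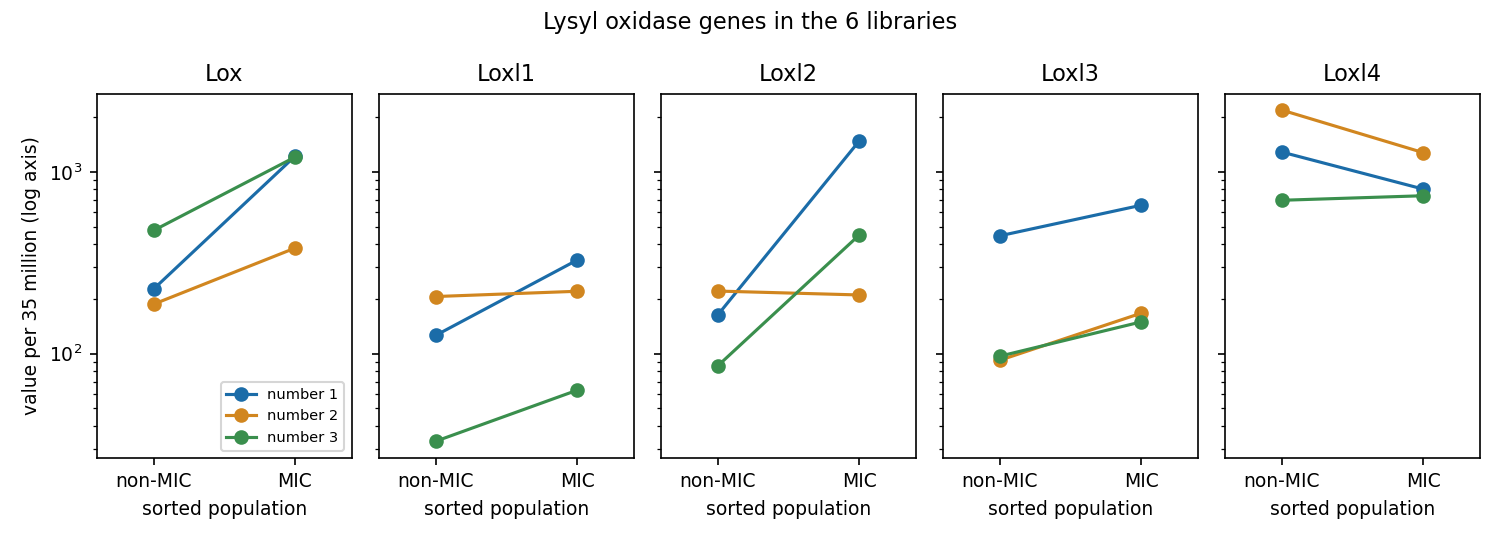
Value of each lysyl oxidase gene, in reads scaled to a library total of 35000000, on a log axis, in non-MICs and MICs, with lines joining the libraries of 1 replicate number. Lox rose along all 3 lines, Loxl2 rose steeply along lines 1 and 3 and was level along line 2, and Loxl4 was highest in both libraries of number 2.

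Loxl2, which cross-links the type IV collagen of basement membranes, showed the widest spread between pairs. Its values were 1474, 210.2 and 448 in MICs, against 163, 221 and 85.6 in non-MICs. MIC exceeded non-MIC 9.04-fold in pair 1 and 5.24-fold in pair 3, whereas in pair 2 the ratio was 0.952. The mean difference was 1.82 (SE 0.71, n = 3 against 3) on the log2 scale, with an adjusted p of 1.00 by limma without a block and 0.23 with the replicate number as a block. By edgeR's quasi-likelihood test with the block it passed, at an adjusted p of 9.68e-12, although 1 pair of 3 did not show the rise. With pair 2 left out limma with the block gave an adjusted p of 0.00069, with pair 1 left out 0.991 and with pair 3 left out 0.563.

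Loxl1, which acts chiefly on elastin, was higher in the MIC library of each pair, by little in pair 2. Its values were 327, 220.2 and 62.9 in MICs, against 126, 206 and 33.0 in non-MICs, with ratios of 2.59, 1.07 and 1.91. When libraries were rescaled by TMM factors, which moved the median gene by -0.11 on the log2 scale in pair 2, the pair 2 difference of Loxl1 turned from 0.10 to -0.01. Loxl3, which oxidises collagens and elastin and is needed for the palate and spine in development, had values of 655, 167 and 149 in MICs, against 445, 91.9 and 96.8 in non-MICs. Its ratios of 1.47, 1.82 and 1.54 were the closest to each other in the family.

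Loxl4 was the only member whose mean was lower in MICs. Its values were 803, 1275 and 738 in MICs, against 1284, 2185 and 697 in non-MICs, with ratios of 0.626, 0.583 and 1.06. Pairs 1 and 2 were lower in MICs and pair 3 was level. The differences of Loxl1, Loxl3 and Loxl4 were 0.79 (SE 0.84), 0.68 (SE 0.79) and -0.46 (SE 0.43) on the log2 scale, with adjusted p-values of 1.00 by limma, between 0.417 and 0.426 with the block, and 0.142, 0.156 and 0.287 by edgeR with the block. None of the 3 passed, which does not show that they were equal in the populations. Without MIC library 1, but with its non-MIC partner kept, the Loxl3 difference was -0.00 in place of 0.68. With the whole of pair 1, 2 or 3 left out it was 0.74, 0.59 and 0.71. Loxl1 differences ranged from 0.04 to 1.48 when libraries or pairs were left out, and were 0.50, 1.14 and 0.73 for whole pairs.

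**Figure D2:**
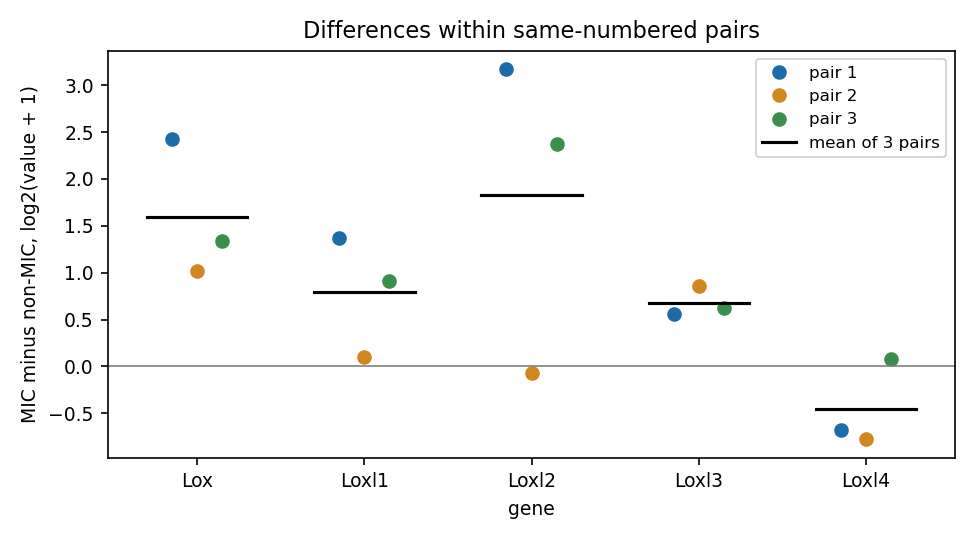
Difference between the MIC and the non-MIC library of each pair on the log2(value + 1) scale for the 5 genes, with 1 point per pair and a bar at the mean of the 3 pairs. Points of Lox and Loxl3 are all above 0, those of Loxl2 run from -0.07 to 3.17, and the mean of Loxl4 is -0.46.

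Set against all genes, 2 of the 4 members other than Lox (Loxl1 and Loxl3) were higher in MICs in all 3 pairs, as were 12.5% of the 22310 genes, and 1 of the 4 was after TMM rescaling, an alternative added after seeing the data, which takes out Loxl1. In 0 of 5 did every MIC library exceed every non-MIC library, as in 2.69% of all genes. Limma without a block called 0% of genes between the populations, with 322 at an unadjusted p under 0.05, and edgeR without it called 0, with 295. Even Thy1, by whose protein the cells were sorted, had an adjusted p of 0.816 by limma without the block, against 5.31e-05 with it. The lack of calls without the block therefore does not show that genes were equal in the populations. With the replicate block limma called 0.121% of genes as higher in MICs, and edgeR called 1.04% as higher and 0.372% as lower. In both directions limma with the block called 29 genes, and 11, 59 and 0 when pair 1, 2 or 3 was left out. Of the 4 members that were not chosen for their contrast, limma with the block called 0 and edgeR with the block called 1, Loxl2.

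Levels were compared between members as RPKM, in which reads are divided by the exon length of the gene and by the library total. Loxl4 had the highest median over the 6 libraries, 7.05 (range 4.73 to 14.8), followed by Lox with 2.56 (1.12 to 7.28), Loxl1 with 1.44 (0.286 to 2.83), Loxl2 with 1.14 (0.452 to 7.79) and Loxl3 with 0.982 (0.571 to 4.06). The ranges of all neighbours in this order overlapped. Loxl4 exceeded Lox in 4 of 6 libraries, Lox exceeded Loxl1 in 5, Loxl1 exceeded Loxl2 in 3 and Loxl2 exceeded Loxl3 in 4. With the length of the longest transcript in place of all exons the medians were 7.94, 2.58, 1.44, 1.16 and 1.10, in the same order.

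In all 3 non-MIC libraries Loxl4 was the most abundant member, with 58.9%, 76.1% and 53.1% of the summed level of the family. In MICs it held 19.9%, 57.7% and 31.2%, and a different member led each of the 3 libraries. Loxl2 led in MIC library 1 with 28.4%, Loxl4 in library 2, and Lox in library 3 with 44.9%. The share of Lox was 26.6%, 15.2% and 44.9% in MICs, against 9.17%, 5.75% and 31.9% in non-MICs, which its selection helps to set. The summed level of the family, in RPKM and with Lox included, was 27.4, 14.97 and 16.1 in MICs, against 14.8, 19.5 and 8.91 in non-MICs, so that it was 1.86 and 1.80 times as high in MICs in pairs 1 and 3 and 0.77 times in pair 2. Without Lox, which was chosen by its rise, the other 4 members gave ratios of 1.5, 0.692 and 1.46 in pairs 1, 2 and 3, in an alternative added after seeing the data.

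**Figure D3:**
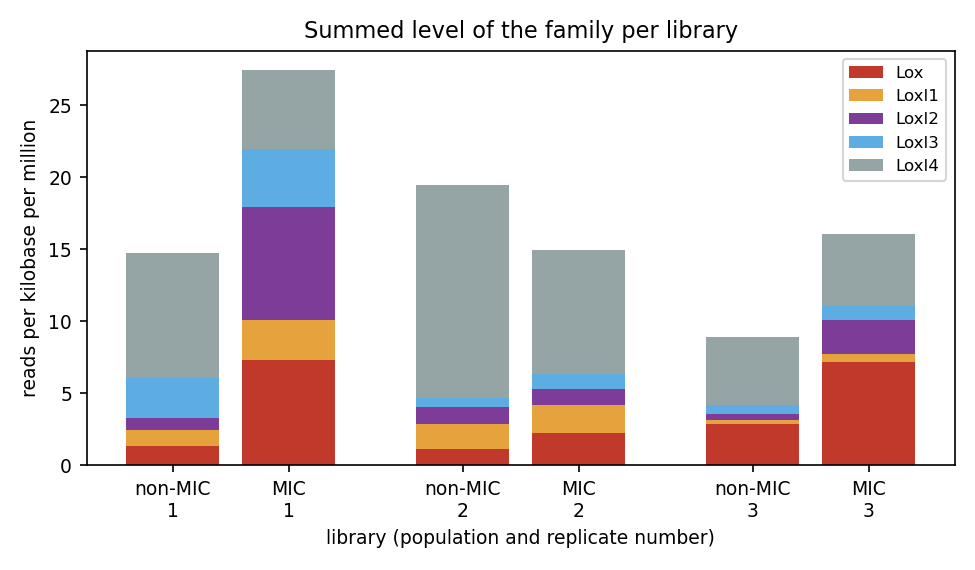
Stacked bars of the 5 genes' levels as RPKM, starting at 0, for each library, with the libraries of a pair side by side. Loxl4 fills most of each non-MIC bar, and the MIC bars of pairs 1 and 3 are 1.86 and 1.80 times as tall as their partners with Lox, which was chosen by its rise, and 1.5 and 1.46 times without it.

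Differences between replicate numbers, which did not enter the choice of Lox, were large in this family. In limma with group and number as terms, 28.4% of all genes differed between the numbers, and 4 of the 5 members did, with adjusted p-values of 0.000108 for Loxl3, 0.000722 for Loxl1, 0.00595 for Loxl4 and 0.00705 for Lox, whereas Loxl2 had 0.135. Loxl3 was highest in both libraries of number 1, at 655 and 445 against at most 167 elsewhere. Loxl1 was lowest in both libraries of number 3, at 62.9 and 33.0 against at least 126 elsewhere. Loxl4 was higher in number 2 than in the other numbers within each population, and Lox was lowest in number 2 within each population. Without a trend in limma's variance, 1 of the 5 passed, Loxl3 with an adjusted p of 0.0264, where 10.6% of all genes did.

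The genes that supply, prepare and receive the work of these enzymes were examined as a list of 73 genes in 9 roles, of which 72 were in the table. Without a block limma called 0 of them. With the block limma called 2, both higher in MICs, and edgeR called 9, all higher. Over all genes, limma and edgeR with the block called 0.121% and 1.04% as higher, and these shares also stand beside the role counts below. When pair 1, 2 or 3 was left out, limma with the block called 1, 5 and 0 of the list. In all, 19 of 72 (26.4%) were higher in MICs in all 3 pairs and 0 were lower in all 3, where 12.5% of all genes were higher and 18.8% were lower. The median difference of the list was 0.28 on the log2 scale, against -0.04 for all genes tested.

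Among 11 fibrillar collagens, the substrates of LOX, limma with the block called 1 and edgeR with the block 2. Col5a2, the alpha 2 chain of type V collagen, which nucleates fibrils, had values of 3957, 326 and 1091 in MICs, against 1883, 133 and 350.0 in non-MICs. Its difference was 1.33 on the log2 scale, with an adjusted p of 0.0127 by limma with the block and 1.00 without it, and it was 0.0857, 0.0263 and 0.453 with the block when pair 1, 2 or 3 was left out. With the whole of pair 1, 2 or 3 left out the difference was 1.46, 1.35 and 1.18. With single libraries left out and their partners kept, it was 0.42 without MIC library 1 and 0.46 without non-MIC library 2. It was 2.22 without MIC library 2 and 2.37 without non-MIC library 1. Col1a2, a chain of type I collagen that edgeR with the block called, was named after its values were seen, with values of 1450.3, 142 and 650 in MICs, against 367, 95.1 and 102 in non-MICs. Col1a1, its partner chain, was likewise named afterwards and showed no common direction, at 157, 241 and 719 in MICs, against 180, 372 and 228 in non-MICs. Col11a1, of type XI collagen, lay between 894 and 1531 in the 6 libraries with a difference of 0.12.

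Among 6 chains of type IV collagen, the substrate of LOXL2, 0 were called with the block by either tool. Col4a1 had values of 29309, 10195 and 6339 in MICs, against 8366, 17805 and 4001 in non-MICs, and so the MIC library was the higher one in pairs 1 and 3 but not in pair 2. Col4a2 had the same signs, with pair differences of 1.44, -0.71 and 0.57 on the log2 scale. The other 4 chains had other signs, and were named after their values were seen: Col4a3 and Col4a4 were higher in MICs in all 3 pairs, Col4a5 in pairs 2 and 3 and Col4a6 in pair 2. Loxl2 had the signs of Col4a1 and Col4a2 (3.17, -0.07 and 2.38), as did 15 of the 72 listed genes (20.8%), against 6.92% of all genes. The 15 included Col4a1 and Col4a2 themselves, from which the signs were taken, and Loxl2 was nearly level in pair 2, at -0.07. The pattern was chosen after the values were seen, and after TMM rescaling 22 of the 72 (30.6%) and 12.1% of all genes had it. Serpinh1, the collagen chaperone HSP47, was another of the 15, with differences of 1.69, -0.14 and 0.39.

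The elastic fibre list, which holds substrates of LOXL1, had 12 of its 13 genes in the table, with 0 called by limma and 1 by edgeR with the block. Its most abundant genes were Fbln2, a fibulin, with values from 8171 to 36683 and a difference of 0.31, and Efemp2, fibulin-4, which binds LOX to elastin, with values from 939 to 3712 and a difference of -0.12. Fbn1, fibrillin-1, was the gene edgeR called, and was named after its values were seen, with 1228, 620 and 494 in MICs, against 411, 656 and 89.1 in non-MICs. Eln, elastin itself, ranged from 7.79 to 283 with no common direction, and was also named afterwards.

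Among 10 genes of proenzyme activation, limma with the block called 1 and edgeR 2. Postn, periostin, a matrix protein that brings BMP1 to its substrates, had values of 11525, 636 and 1077 in MICs, against 1666, 115 and 226 in non-MICs. It rose by 2.498 on the log2 scale with pair differences of 2.79, 2.46 and 2.25, at an adjusted p of 3.25e-05 with the block by limma and 1.00 without it. The limma value was 0.000548, 0.000263 and 0.453 with the block when pair 1, 2 or 3 was left out. The difference was then 2.35, 2.52 and 2.62, and it was 1.23 without MIC library 1 alone. Tll1, a proteinase of the BMP1 family called by edgeR with the block and named after its values were seen, had values of 106, 16.7 and 103 in MICs, against 21.2, 3.17 and 28.1 in non-MICs. Bmp1 itself, which releases the active enzyme, was at 8769, 10321 and 8678 in MICs, against 8816, 10189 and 8730.2 in non-MICs, and its pairs differed by at most 0.02 in size. Fn1, fibronectin, the scaffold on which BMP1 meets pro-LOX, had a difference of 0.23. Its values, from 104600 to 583570 and not divided by exon length, were the highest among the genes named from the list of roles.

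Of 7 genes of copper supply 0 were called with the block by either tool. Slc31a1, the copper importer CTR1, ranged from 1940 to 3302 with a difference of 0.08, and Atox1, the chaperone that hands copper to the secretory pathway, from 3103 to 5645 with a difference of 0.20. Of 6 genes of lysyl hydroxylation edgeR called 1 and limma 0. Plod2, which hydroxylates lysines of collagen telopeptides, had a difference of 0.27, and Colgalt1, which glycosylates hydroxylysine, of -0.06. Fkbp10, a foldase that edgeR called, was named after its values were seen, with 2729, 799 and 324 in MICs, against 538, 492 and 131 in non-MICs.

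Among 10 genes of collagen folding 0 were called by either tool, with differences of 0.37 for P4hb, the disulfide isomerase subunit of prolyl hydroxylase, and 0.65 for Serpinh1. Of 7 proteoglycans that bind fibrils limma called 0 and edgeR 3. Bgn, biglycan, had values of 1771, 4600.3 and 575 in MICs, against 1273, 3255 and 114 in non-MICs, with an adjusted p of 9.05e-05 by edgeR with the block and 0.309 by limma with it. Ogn, osteoglycin, had pair differences of 2.42, 1.77 and 1.07, with 7.57e-08 and 0.133 by the same tests, while in pair 3 its values were 4.06 and 1.403. The 3 copper amine oxidases outside the family gave 0 calls, with differences of -0.60 for Aoc2 and 0.08 for Aoc3.

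**Figure D4:**
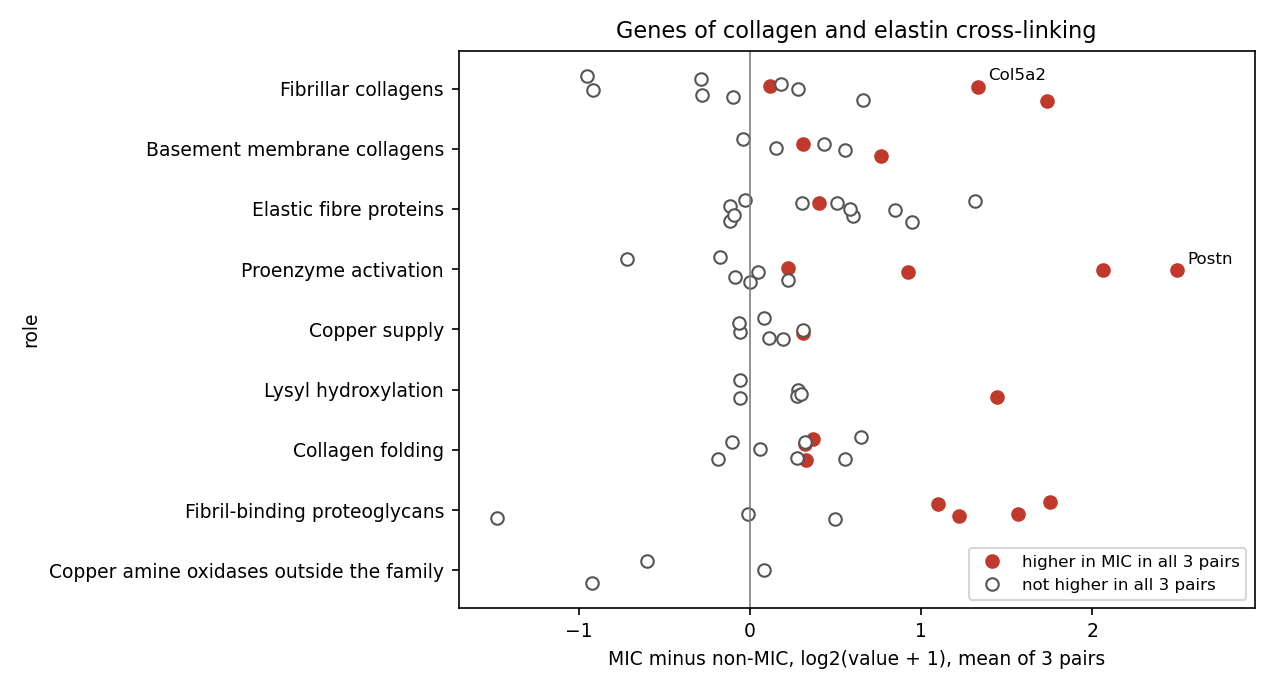
Mean difference between MICs and non-MICs on the log2(value + 1) scale for the 72 genes, by role, with filled points for genes higher in MICs in all 3 pairs and open points for the others. The 2 labelled genes, Postn at 2.498 and Col5a2 at 1.33, are those limma called with the replicate block. Above 0 are 5 of the 7 copper supply genes, of which 0 were called, 49 of the 72 genes and 10229 of all 22310 genes.

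The genes most like Lox over the 6 libraries were ranked by the root mean square difference between log2 profiles, each centred on its mean, among 11172 genes with a mean value of at least 100. The 6 closest were Cnr1, a cannabinoid receptor, at 0.36, Uchl1, a ubiquitin hydrolase, at 0.53, Depdc1a, a DEP domain protein, at 0.55, Ncam1, a neural cell adhesion molecule, at 0.55, Arhgap24, a GTPase-activating protein, at 0.56, and Sulf1, an extracellular heparan sulfatase, at 0.58. Their direction over the pairs follows from the choice, since Lox was itself chosen by its rise. Loxl2 stood at rank 1374 with 0.96, and Loxl3, Loxl4 and Loxl1 at ranks 7623, 10275 and 10428.

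Marker lists of other cell types were read beside the family, and the markers given below with values, like Krt8 above, were named after their values were seen. The summed level of 8 basal epithelial markers ranged from 24069 to 409150 in MICs and from 24076 to 141270 in non-MICs, and was 2.90, 1.00 and 1.53 times as high in MICs in pairs 1, 2 and 3, where Lox was 5.37, 2.03 and 2.53 times as high. Of these 8, 5 were higher in all 3 pairs, as were 12.5% of all genes. Limma with the block called 4 (Acta2, Cnn1, Krt5 and Mylk) as higher, and 0.121% of all genes. In pair 2 the log2 differences of the 5 were 2.04 for Krt5, 2.38 for Acta2, 2.16 for Cnn1, 1.48 for Mylk and 0.57 for Trp63. Krt17, the largest term of the sum in both libraries of number 2, differed there by -0.12, Krt14 by -0.90 and Oxtr by -0.67. Acta2, smooth muscle actin, was at 230570, 3765 and 9839 in MICs, against 48582, 724 and 1581 in non-MICs. The 7 pericyte markers in the table, of 8 listed, were 4.44, 1.48 and 1.80 times as high in sum (663 to 20240 against 368 to 4563), with 2 of them, Rgs5 and Kcnj8, at no more than 3 reads in every library. Myh11, a smooth muscle myosin that basal cells also express, was the 1 pericyte marker called as higher, and held 19908 of the 20240 in MIC library 1. Of the 7 pericyte markers, 4 were higher in MICs in all 3 pairs, as were 12.5% of all genes. These were Myh11, Cspg4 with pair differences of 1.71, 1.46 and 2.78, and Abcc9 and Rgs5 at no more than 17 reads. Without Myh11, an alternative added after seeing the data, the ratios of the sum were 0.431, 1.06 and 0.883. Notch3, the largest term of that sum in every library, had pair differences of -1.46, 0.06 and -0.62.

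The 9 fibroblast markers in the table, of 10 listed, summed to 1100.2 to 5327 in MICs, against 748 to 2114 in non-MICs, at ratios of 3.59, 1.26 and 1.47. Dpt, Clec3b and Has1 among them were at no more than 3 reads in every library. Of the 9, 2 were higher in MICs in all 3 pairs, Pdgfra and Cxcl12, as were 12.5% of all genes. Cxcl12, a chemokine, was the largest term of the sum in every library. It was at 4517, 2227 and 533 in MICs, against 989, 1505 and 315 in non-MICs. The 6 macrophage markers summed to 216 to 2089 in MICs, against 231 to 1286 in non-MICs, at ratios of 0.935, 1.62 and 0.845. The 5 endothelial markers summed to 64.2 to 195 and 47.6 to 194, at ratios of 2.54, 1.00 and 0.783. The 6 luminal markers summed to 211670 to 590210 and 277220 to 698540, at ratios of 0.845, 0.764 and 1.06. Of 7 T cell markers 1 was in the table, Trac at 26.4 to 75.5. The part of any of these cell types in the differences of Lox and its family was not tested, and in bulk libraries more cells of a type cannot be told apart from more RNA per cell.

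**Figure D5:**
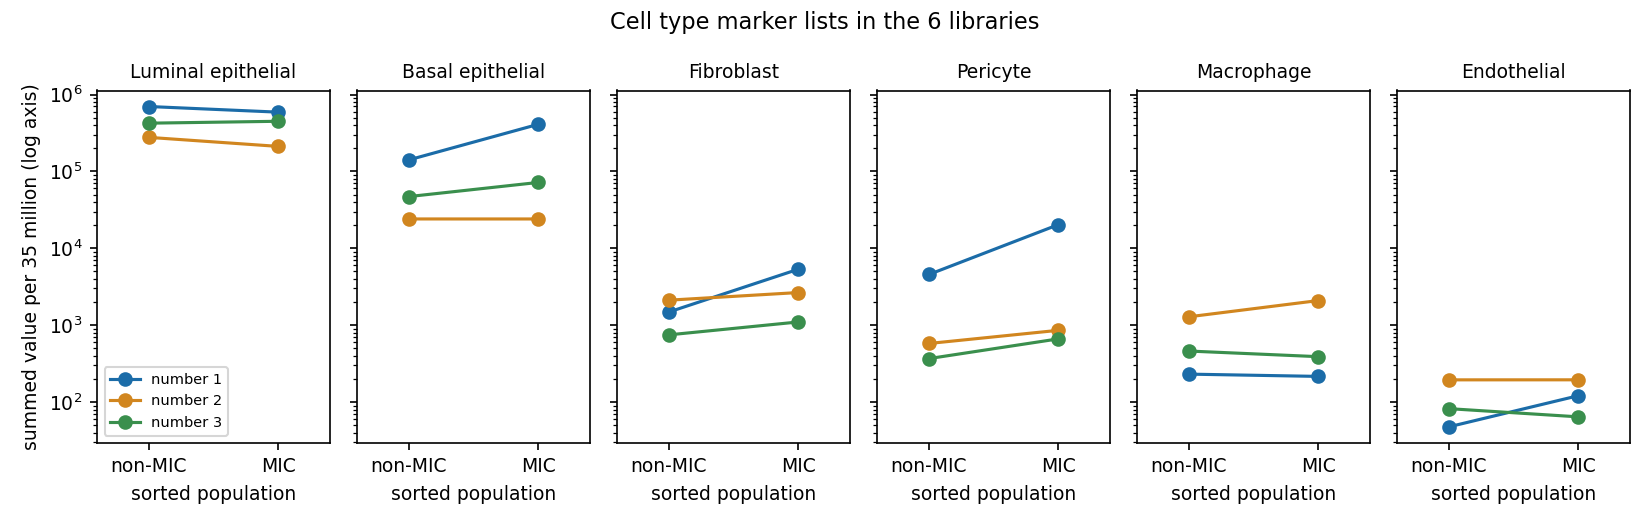
Summed value of 6 marker lists, in reads scaled to a library total of 35000000, on a log axis, in non-MICs and MICs, with lines joining the libraries of 1 replicate number. Summed basal markers were 2.90, 1.00 and 1.53 times as high in MICs in pairs 1, 2 and 3, with Krt17 the largest term in number 2. Libraries of number 1 had the highest basal and pericyte sums in both populations.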

How the data were processed

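RNA was sequenced as paired reads of 75 bases from 3 MIC and 3 non-MIC libraries. The deposited signal is gene counts that the authors scaled to the library total. The methods name Bowtie2 and samtools, whereas the submitters' processing notes list STAR and HTSeq, with builds mm10 and GRCm38, and no versions are given. Values were whole multiples of 1 read (within 0.01) for between 99.97% and 100.0% of genes, and these recovered reads, 31467281 to 51759769 per library, entered edgeR. Intervals from such depth would cover counting error only. Symbols, positions and exon lengths came from GENCODE vM21 (22161 of 22310 identifiers matched).

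Limma 3.58.1 in R 4.3.3, with a trend and no block, was fitted to log2(value + 1) over all genes and 6 libraries, with Benjamini-Hochberg adjustment at 0.05. Fold changes on this scale understate those of low genes. edgeR 4.0.16 (quasi-likelihood) and a replicate block were alternatives, with the others named in the closing section. The replicate numbers come from the labels of both populations, and MIC and non-MIC libraries with 1 number deviated together from the mean of their population (correlations of 0.573, 0.668 and 0.746 over genes, against -0.54 to -0.19 for unlike numbers), so blocked values stand beside a result where they change a call. The limma and edgeR fits of MIC against non-MIC, each with and without the replicate block, were tested on simulated data. The spread between simulated replicate numbers was set in advance and not taken from these libraries. The simulation therefore does not show how far a single call here, such as that of Loxl2, can be relied on.

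The members, the 73 genes in 9 roles and the marker lists were chosen with earlier results of these data known. The text names the 5 members, Thy1 and Cd24a, the 2 most abundant genes of each role, every listed gene that limma called with or without the block, and the 6 genes most like Lox, and says where it names another after seeing its values. The result of 1 marker list is not reported here.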

Additional observations from a re-analysis of the deposited data

How the results depend on the processing

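Of the alternatives, pseudocounts of 0.1 and 10, the exclusion of genes under the median level, TMM and quantile normalization, limma without a trend and edgeR without a block all left 0 genes called between MICs and non-MICs. With the replicate block limma called 29 genes and edgeR 315, and 2 and 9 of the cross-linking genes. When single libraries, or pairs with the block kept, were left out, the counts ranged from 0 to 59 over all genes and from 0 to 5 over the cross-linking genes; without pair 1, 2 or 3 limma with the block called 11, 59 and 0 genes. Loxl2 passed by edgeR with the block (1.90 on the log2 scale), and its difference ranged from 1.07 to 2.77 under these omissions. The block changed no call of Loxl1, Loxl3 or Loxl4. Limma without a trend called 2364 genes between replicate numbers in place of 6333, and 1 member in place of 4. The difference of Lox ranged from 1.18 to 2.15 under omissions, that of Loxl3 from -0.00427 to 1.42 and that of Loxl4 from -0.88 to -0.05. With whole pairs left out, that of Loxl3 ranged from 0.59 to 0.74. With a minimum mean value 10 times as high, 1 of the 6 genes most like Lox remained, since the others lie below it.

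Differences of named genes that changed sign when libraries or pairs were left out ranged as follows on the log2 scale: Col11a1 from -0.10 to 0.33, Col4a1 from -0.0703 to 1.24, Col4a2 from -0.0662 to 1.00, Fbln2 from -0.25 to 0.83, Efemp2 from -0.48 to 0.51, Bmp1 from -0.0802 to 0.0726, Fn1 from -0.43 to 0.83, Slc31a1 from -0.12 to 0.26, Atox1 from -0.0161 to 0.42, Plod2 from -0.17 to 0.60, Colgalt1 from -0.25 to 0.0636, Bgn from -0.28 to 2.13, Ogn from -0.10 to 3.94 and Aoc3 from -0.19 to 0.46. Bmp1 stood at -0.00147 by edgeR without the block and Aoc3 at -0.00512 after quantile normalization. Without a change of sign under any of these omissions, Postn ranged from 1.23 to 3.62, Col5a2 from 0.42 to 2.37 and Serpinh1 from 0.13 to 1.10. P4hb ranged from 0.16 to 0.51 and Aoc2 from -0.97 to -0.22. Over whole-pair omissions alone Postn ranged from 2.35 to 2.62 and Col5a2 from 1.18 to 1.46. Bgn then ranged from 0.49 to 1.41 and Ogn from 1.42 to 2.09. Col11a1 ranged from 0.11 to 0.13 and Fn1 from 0.17 to 0.33. These genes, with Fbln2, Slc31a1, Atox1 and Plod2, thus changed sign only when a single library was left out and its partner kept. Col4a1, Col4a2, Efemp2, Bmp1, Colgalt1 and Aoc3 also changed sign with a whole pair left out. The cause of the sign changes was not tested. With 3 libraries a population, no group was large enough to look for single outlying libraries.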
